A study of Gossypium hirsutum with 17 samples.

Results

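The transcripts described here were those raised in cotton seedlings by cold and held near the control level in ABA, mannitol and high pH. A probe set, the group of oligonucleotides that reads 1 transcript on the array, was taken as raised by cold only on 4 conditions. Its mean log2 signal in cold exceeded the control mean by at least 1.5, every cold array lay above every control array, the cold mean was at least 6, and the changes in ABA, mannitol and pH each lay between -0.5 and 0.5. Of 24029 probe sets, 33 met the rule, or 0.137%. They came from 32 sequence clusters, since 1 cluster gave a pair of probe sets. They were chosen by their cold, ABA, mannitol and pH values, so these values are given below as a description without a test. NaCl values were not part of the rule. The rule was set with earlier results of these data known, and the NaCl arrays were included in the quantile normalization of all arrays. The NaCl values of the members are thus not fully independent of the choice.

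Whole seedlings of upland cotton (Gossypium hirsutum, cultivar C312) grew on half-strength MS medium and were harvested 14 days after germination. Control seedlings grew at 25°C with no stated medium pH, and cold seedlings stood in medium of pH 5.8 for 8 days at 25°C and then for 2 days at 4°C. The other seedlings spent 10 days at 25°C with 1 μM ABA, 200 mM mannitol or 200 mM NaCl in medium of pH 5.8, or in medium of pH 11. In all groups 4 days of germination came first. Each group had 3 Affymetrix Cotton Genome Arrays, except pH with 2, which makes 17 in all. Cold thus differed from the other treatments in its length as well as its kind. The labels call the arrays biological replicates, whereas the methods state that the RNA of the replicates was pooled, so the spread between arrays may be technical. In whole seedlings a change in the share of a tissue and a change in RNA per cell cannot be told apart.

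Cold perception in plants starts with changes in membranes and a rise of calcium in the cell, and passes through protein kinases to transcription factors. In Arabidopsis, the CBF/DREB factors switch on a large set of cold-regulated genes that encode protective proteins and enzymes of sugar metabolism. Many of these genes also respond to drought, salt or the hormone ABA, because dehydration is shared by these stresses, while other cold-responsive genes are reached by routes that do not need ABA. Cotton is a plant of warm climates, and its seedlings are injured by chilling.

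The whole cold response was much wider than the 33 probe sets. The cold conditions of the rule alone were met by 716 probe sets, 2.98% of all. Of these, 683 moved by more than 0.5 in at least 1 of ABA, mannitol and pH, and 365 stood above that limit in all 3. The members were therefore 4.61% of the probe sets raised in cold. Staying within the limit in all 3 treatments was met by 14.0% of all 24029 probe sets. The median cold change was 1.66 among the members and 2.15 among the other 683, and no test was made because the rule set both. The mirrored rule, for probe sets lowered by cold only, was met by 54 of the 734 probe sets that fell in cold by the same limits.

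**Figure D1:**
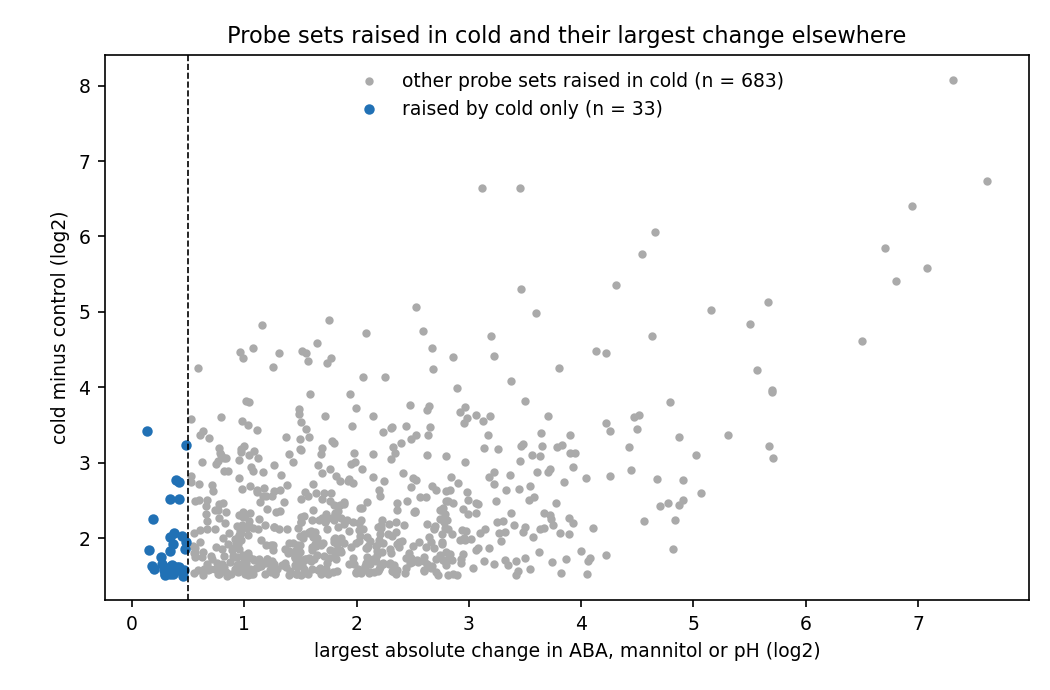
Each point is 1 of the 716 probe sets raised in cold, with its largest absolute change in ABA, mannitol or pH on the x axis and its cold change on the y axis, both in log2 units; the dashed line is the limit of 0.5. The 33 members lie to its left, with cold changes of 1.5 to 3.42, and the other 683 spread to the right.

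The scale of the deposited signals bears on every member. The deposited signals of the ABA, mannitol and pH arrays were scaled to a 2% trimmed mean of 500.1. Among control arrays this mean was 118 to 120, among cold arrays 107 to 127 and among NaCl arrays 18.5 to 140, and quantile normalization brought all arrays together. Cold and control had like trimmed means but not like deposited medians, at 21.5 to 35.3 in cold and 36.0 to 37.7 in control. The direction of the cold change was set by the rule, which asked for at least 1.5. Over the scalings the cold median of all probe sets lay only between -0.27 and 0.15. That the members kept their sign is thus a description and no support. The size of the cold change rested in part on the scaling, and so did the flat values in ABA, mannitol and pH. On the deposited scale without normalization, all probe sets had a median of 2.09 for the ABA change, 2.19 for mannitol and 2.11 for pH, and the members had medians of 2.16, 2.46 and 2.07. The rule itself gave 68 probe sets with median centring, 32 of them members, and 20 with trimmed mean scaling, 13 of them members, so which probe sets counted as cold only depended on the scaling. All 33 members stood higher in cold than in control under each of the 6 scalings, at 1.13 to 3.33 without rescaling and 1.55 to 3.75 with median centring. With an offset of 32 added before the log, the range was 0.85 to 2.57. The members' median was 1.66 by the main scaling, 2.08 with median centring and 1.39 with the offset. A change of at least 1.5 was kept by 24 of them without rescaling and by 8 with the offset.

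Cold changes ran from 1.5 to 3.42 on the log2 scale, or 2.84- to 10.7-fold. In 10 members the change was 2 or more, and in 23 it was between 1.5 and 2. All 33 had cold arrays above the control arrays by the rule, whereas 18.9% of all probe sets did so. By limma, at a fold of at least 2 and an adjusted p of at most 0.05, 24 of the members passed in cold beside 5.66% of all probe sets, and as the rule used this contrast the count is given only as background. The gap between the lowest cold array and the highest control array ranged from 0.16 to 3.02, with a median of 1.09. In 32 of the 33 members every cold array also lay above all 11 arrays of control, ABA, mannitol and pH, and in 11 of them the gap was at least 1. The exception was Ghi.9152.1.S1_at, in which ABA replicate 1 stood at 5.82 and cold replicate 3 at 5.75. The rule bounds the means of all these groups, so the separation is only a description, and its share over all probe sets was not counted.

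**Figure D2:**
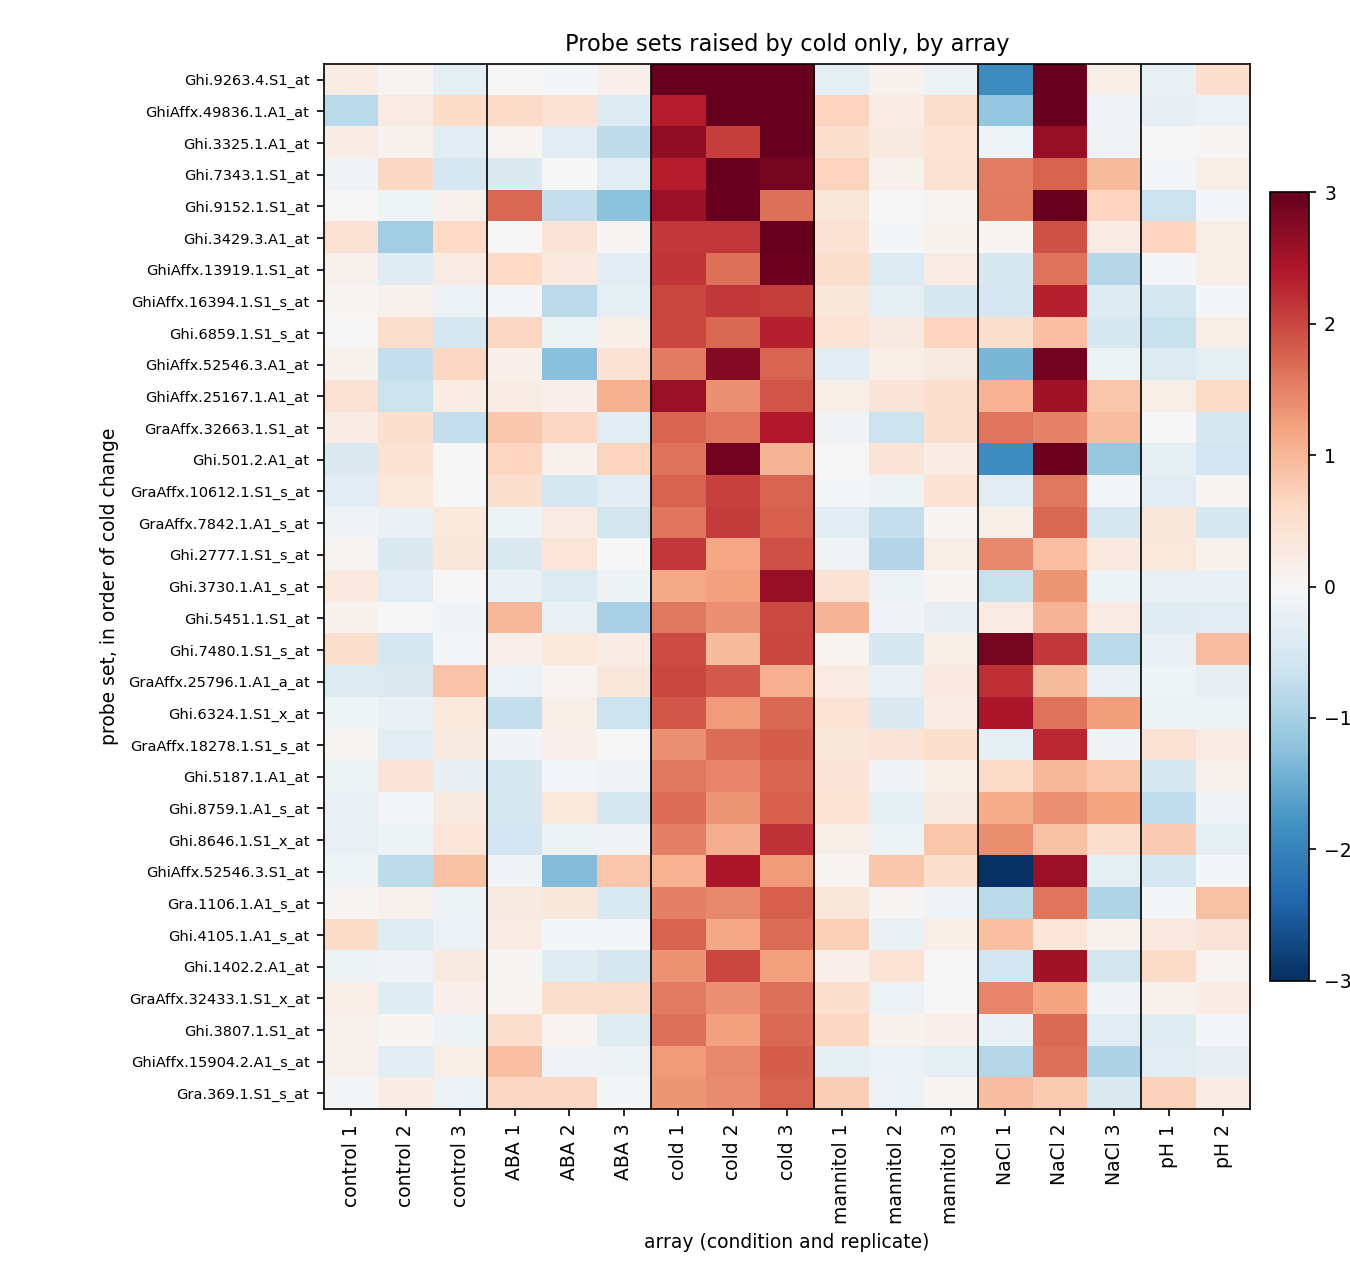
Rows are the 33 probe sets in order of their cold change and columns are the 17 arrays; the colour is the log2 signal minus the control mean of that probe set, and values beyond -3 and 3 take the end colours. The cold columns are red in every row, the ABA, mannitol and pH columns are pale, and NaCl replicate 2 stands apart from the other NaCl columns.

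The largest cold change belonged to Ghi.9263.4.S1_at, at 3.42 or 10.7-fold. Its log2 signal was 5.56, 5.41 and 5.03 in the control arrays and 8.58, 8.90 and 8.77 in the cold arrays, and it stayed between 5.03 and 5.82 in the 11 arrays of control, ABA, mannitol and pH. No array of those groups came near the cold arrays, and the gap to the control of 3.02 was the widest among the members. This probe set has no name in the sources used, but another probe set of its cluster, Ghi.9263.1.A1_a_at, is described as weakly similar to AGC2-1, the Arabidopsis protein kinase OXI1, which is known to act in signalling by reactive oxygen species.

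The next cold changes were 3.23 in GhiAffx.49836.1.A1_at, 2.77 in Ghi.3325.1.A1_at, 2.74 in Ghi.7343.1.S1_at and 2.53 in Ghi.9152.1.S1_at, none of which is named. GhiAffx.49836.1.A1_at stood at 4.11, 5.17 and 5.47 in control and at 7.28, 8.45 and 8.72 in cold. Ghi.3325.1.A1_at stood at 3.93, 3.83 and 3.37 in control and at 6.38, 5.78 and 7.28 in cold. The groups did not overlap in either, although the cold arrays differed among themselves by more than 1 log2 unit. Ghi.7343.1.S1_at was at 4.41, 5.13 and 4.00 in control and at 6.86, 7.52 and 7.39 in cold. Ghi.9152.1.S1_at, whose cluster holds a probe set similar to a nucleotide-binding protein of Arabidopsis, was at 4.09, 3.97 and 4.22 in control and at 6.69, 7.41 and 5.75 in cold. In ABA this probe set was split, with 5.82 in replicate 1 but 3.38 and 2.86 in replicates 2 and 3, so that its mean ABA change of -0.071 did not describe any of the ABA arrays.

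A further 5 members had cold changes of at least 2. They were Ghi.3429.3.A1_at (2.52), GhiAffx.13919.1.S1_at (2.25), GhiAffx.16394.1.S1_s_at (2.07), Ghi.6859.1.S1_s_at (2.03) and GhiAffx.52546.3.A1_at (2.02). The tightest cold arrays of all members were those of GhiAffx.16394.1.S1_s_at, at 10.18, 10.27 and 10.24 (SD 0.048, n = 3), against 8.23, 8.28 and 7.98 in control (SD 0.16, n = 3). Ghi.3429.3.A1_at had the widest control group, at 7.22, 5.74 and 7.36 (SD 0.90, n = 3), and its cold arrays were at 8.90, 8.90 and 10.07. The spread thus differed widely between members, with an SD in cold of 0.048 to 0.96.

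Only 3 of the 33 members carried an annotation, and 1 of these had no name beyond a gene number. Ghi.5451.1.S1_at was assigned to LOC107947061, with the synonyms ACS3 and ACS6. ACS is the usual symbol of ACC synthase, the enzyme that makes the direct precursor of ethylene and often sets the rate of its synthesis, although the annotation gives no product name. Its log2 signal was 6.05, 5.92 and 5.86 in control and 7.53, 7.31 and 7.92 in cold, a change of 1.64 or 3.12-fold. The ABA arrays were scattered at 6.95, 5.75 and 4.98, the mannitol arrays stood at 6.96, 5.85 and 5.70 and the pH arrays at 5.58 and 5.59. All of these were below the lowest cold array, and replicate 1 of ABA and of mannitol came closest to it.

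The other probe sets with ethylene names are given for comparison. Of 7 probe sets named for ethylene synthesis or signalling, 2 rose in cold by limma and none fell, beside 5.66% of all probe sets that rose and 5.48% that fell, and Ghi.5451.1.S1_at was 1 of the 2. The other, Gra.2961.2.A1_x_at, is similar to ACC oxidase, the enzyme of the last step, and had a control mean of -1.58, so that the size of its change is uncertain. It stood above control in all treatments. The probe set of ACS1, GhiAffx.56172.1.S1_s_at, differed from control by -0.16 in cold (adjusted p = 0.715, limma) and rose by 1.42 in ABA (adjusted p = 0.00155) and by 1.05 in pH (adjusted p = 0.0166). The probe set of ACO3, another ACC oxidase, was at 0.94 in cold (adjusted p = 0.00864), just under the fold limit, and at 0.96 in ABA. The rest were lower in cold and not called. Ghi.4158.2.S1_s_at, EIN3-binding F-box protein 1, was at -2.35 (adjusted p = 0.316). The probe sets of ACO1, Ghi.7921.1.S1_x_at and Ghi.6953.1.S1_s_at, were at -0.94 (adjusted p = 0.202) and -0.17 (adjusted p = 0.740). The ACS3 and ACS6 probe set was the only one of the 7 that met the rule. As 0.137% of all probe sets met it, nothing about ethylene genes is read from the others.

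Ghi.501.2.A1_at is described as a myb-like transcription factor, similar to a DNA-binding protein of Arabidopsis. MYB proteins are a large family of plant transcription factors, and some of their members act in stress responses. Its log2 signal was 7.40, 8.27 and 7.83 in control and 9.46, 10.74 and 8.86 in cold. The ABA arrays stood at 8.47, 7.97 and 8.49, the mannitol arrays at 7.83, 8.21 and 8.06, and those of pH at 7.54 and 7.26. The change was 1.85 in cold and 0.48 in ABA, close to the limit of the rule. Cold replicate 3 stood only 0.37 above the highest ABA array, and the cold SD of 0.96 (n = 3) was the largest among the members.

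Among 29 probe sets with MYB or SANT names, 3 rose and 3 fell in cold by limma, beside 5.66% of all probe sets that rose and 5.48% that fell. Those that rose were Ghi.10620.1.S1_at, similar to a MYB factor of rice, at 3.13 (adjusted p = 0.0242), Gra.139.1.A1_s_at at 1.54 (adjusted p = 0.0426) and Ghi.1711.1.S1_s_at at 1.14 (adjusted p = 0.00873). Those that fell were Gra.1459.1.A1_s_at at -1.94 (adjusted p = 0.012), Ghi.5933.1.S1_s_at at -1.76 (adjusted p = 0.0194) and Gra.1546.1.A1_s_at at -1.47 (adjusted p = 0.0125). The member Ghi.501.2.A1_at was not called in cold, at 1.85 (SE 0.91, adjusted p = 0.193). Its cluster mate Ghi.501.2.S1_at was not called either (adjusted p = 0.325). With so few calls, no direction is read for the family. Of the 5 MYB probe sets that met the cold conditions of the rule, 3 exceeded 0.5 in at least 1 other treatment. Ghi.10620.1.S1_at, for example, stood at 1.69 in mannitol and 1.98 in pH but at 0.19 in ABA.

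Several families had named probe sets raised in cold but no member. Over the whole array 2.98% of probe sets met the cold conditions, and 4.61% of those were members, so with 4 to 12 such probe sets in a family a count of 0 members is near this background and says nothing particular about the family. Of 41 named probe sets of the AP2/ERF and CBF/DREB families, 12 met the cold conditions and 11 of these stood above 0.5 in another treatment. For WRKY factors the numbers were 8 of 33 and 8, for zinc finger proteins 12 of 29 and 11, for protein kinases 9 of 51 and 9, for the MAPK cascade 4 of 13 and 4, and for sugar and starch enzymes 9 of 12 and 9. Of the named probe sets that met the cold conditions in these families, at most 1 in each therefore stayed at or below the upper limit in all of ABA, mannitol and pH. The 3 named LEA and desaturase probe sets did not meet the cold conditions, at changes of 0.30 to 0.90. Most names come from tables that the study chose on these same arrays, so families are not sampled evenly, and the lack of members in them is a count among named probe sets only. Names were held for 1195 probe sets, and 149 of them met the cold conditions.

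The members came from several probe types and sources. Probe sets with an _s_at suffix, whose probes match several related transcripts, were 13 of 33 (39.4%) beside 38.7% on the array, and those with an _x_at suffix, which may also bind unrelated transcripts, were 3 (9.09%) beside 6.48%. Identifiers that begin with Ghi or GhiAffx, for G. hirsutum sequences, made up 25 members, and those with Gra or GraAffx, for G. raimondii, 8. Signals of the 16 members with either suffix may therefore hold more than 1 transcript.

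Some members shared their cluster with probe sets outside the rule. In 13 of the 32 clusters there were 19 such probe sets, and 18 members were alone in their cluster. All 19 had a cold mean above the control mean, 17 of them by at least 1 and 13 by at least 1.5 without overlap between the groups. In 18 of the 19 every cold array lay above every control array, and their median cold change was 2.38. They read sequences of the same clusters on the same arrays, so this is a description and no independent support. The exception to the separation was Gra.1106.1.S1_at, with 2.75 to 3.70 in control and 3.45 to 5.28 in cold.

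In the other treatments the rule fixed part of the outcome for these probe sets. Those that met its cold conditions could not also be flat, or they would have been members. None of the 19 stayed within 0.5 of control in all 3 of ABA, mannitol and pH, with 13 outside the limit in ABA, 15 in mannitol and 13 in pH. Over all probe sets 14.0% stayed within it, but the 19 were not a free choice, so the count is only a description. For the top member the difference from its mates was marked. Its cluster mate Ghi.9263.1.A1_a_at, the one similar to AGC2-1, stood 4.72 above control in cold, with 9.77, 9.38 and 11.00 against 5.28, 5.28 and 5.44. It also stood 2.09 above control in ABA and 1.89 in pH, at 7.71, 7.35 and 7.20 in the ABA arrays and 7.01 and 7.45 in the pH arrays, where Ghi.9263.4.S1_at changed by 0.033 and 0.13. The mate Ghi.9263.5.A1_x_at was at 4.35 in cold and 1.57 in ABA, and Ghi.9263.5.S1_at was at 4.46 and 0.96. Whether these probe sets read the same transcript was not tested.

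Similar splits were found in other clusters. GhiAffx.49836.1.S1_at was at 3.55 in cold, 0.85 in ABA and 1.51 in mannitol, where its partner GhiAffx.49836.1.A1_at was at 3.23, 0.20 and 0.48. Ghi.501.2.S1_at, with the same myb-like name as the member, had changes of 1.6 in cold, 0.66 in ABA and 1.05 in mannitol. Ghi.7480.1.A1_at was at 2.69 in cold, with a mannitol change of 1.05 and a pH change of 1.01, beside 1.64, -0.073 and 0.34 in the member Ghi.7480.1.S1_s_at. Some mates went below control instead. Ghi.3429.2.A1_s_at, at 1.47 in cold, stood at -1.6 in mannitol and -2.24 in pH, and Ghi.3325.2.A1_at, at 1.26 in cold, stood at -1.76 in ABA and -2.12 in pH. The log2 signals of those 2 probe sets were low, with a control mean of 3.64 and 2.71.

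**Figure D3:**
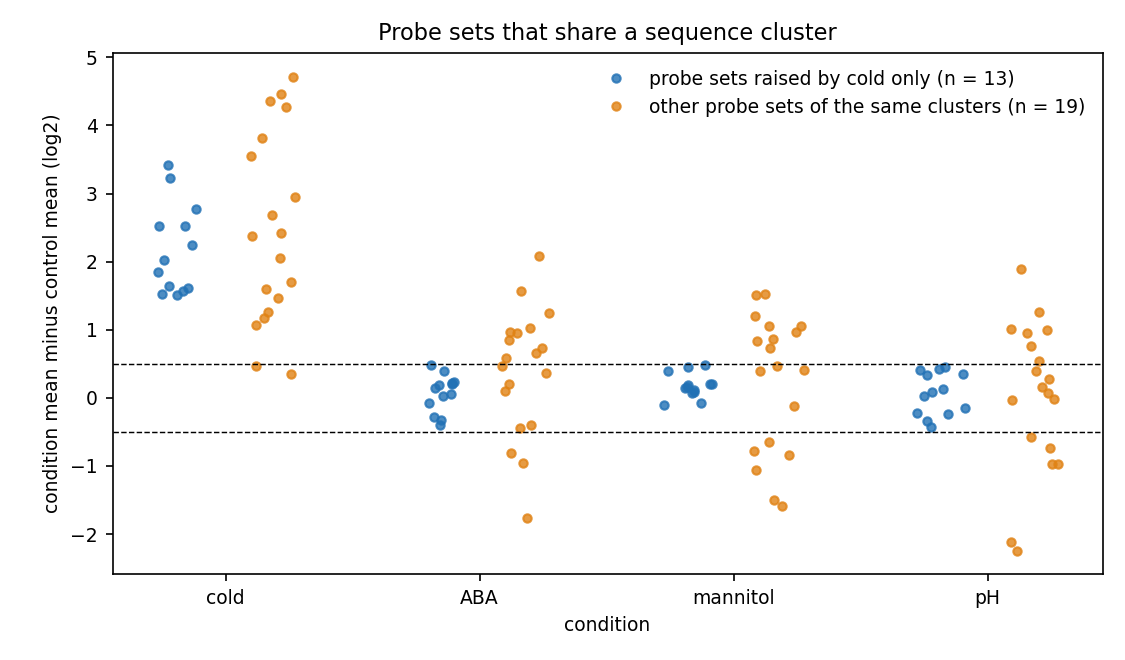
Changes from control in log2 units are shown for the 13 members that share a cluster with a probe set outside the rule and for the 19 such probe sets; the dashed lines are the limits of -0.5 and 0.5. Both sets stand above 0 in cold, at 0.35 to 4.72 for the 19. In ABA, mannitol and pH the members keep within the limits by the rule, and the 19 spread beyond them, in part also by the rule.

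The cluster GhiAffx.52546 gave a pair of members. GhiAffx.52546.3.A1_at was at 6.23, 5.41 and 6.76 in control and at 7.68, 8.89 and 7.88 in cold, and GhiAffx.52546.3.S1_at at 7.75, 7.12 and 8.74 in control and at 8.90, 10.31 and 9.14 in cold. In both, control replicate 2 was the lowest control array and cold replicate 2 the highest cold array. The second had the narrowest gap of all members, 0.16 between its lowest cold and highest control array.

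At the edges of the rule, the members with the smallest cold changes were Gra.369.1.S1_s_at (1.5), GhiAffx.15904.2.A1_s_at (1.51), Ghi.3807.1.S1_at (1.52), GraAffx.32433.1.S1_x_at (1.53) and Ghi.1402.2.A1_at (1.53). Just outside lay Gra.1922.1.S1_at (1.47), GhiAffx.11668.1.S1_at (1.45), Gra.2400.1.A1_at (1.45), Ghi.9239.1.A1_a_at (1.41) and Ghi.8349.2.S1_at (1.4). On the side of the other treatments, 12 members had a largest change of 0.4 to 0.5, and 15 probe sets missed the rule only with a largest change of 0.5 to 0.6. Ghi.6739.1.S1_at was among those 15, with a cold change of 3.58 and a pH change of 0.53. Membership near these limits was thus a matter of small differences.

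Beyond the limits, 5 probe sets outside the rule followed the mean profile of the members most closely over the 17 arrays. The first was Ghi.3035.1.A1_at, named NF-X1-type zinc finger protein NFXL1 after an Arabidopsis regulator of stress responses, with r = 0.971. Against control it stood 3.37 higher in cold and 0.15 higher in ABA, with a mannitol change of -0.43 and a pH change of -0.61, the last just past the limit. The others were Ghi.6739.1.A1_at (r = 0.968), Ghi.6739.1.S1_at (r = 0.967), GraAffx.5831.1.A1_s_at (r = 0.967) and GhiAffx.22176.1.S1_at (r = 0.967), all without a name, with cold changes of 3.42, 3.58, 3.33 and 4.26. These correlations share the arrays and their normalization, and without NaCl replicate 2 they were 0.959 to 0.965.

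The cold arrays did not rank alike in all members. Cold replicate 3 was the highest cold array in 18 members, replicate 2 in 10 and replicate 1 in 5, and replicate 2 was the lowest in 16. The median of the members above the control mean was 1.75, 1.65 and 1.81 in replicates 1, 2 and 3. In cold replicate 3 the log2 ratio of the 3' to the 5' actin probe sets, a sign of RNA quality, was 7.22, whereas it was 3.82 and 2.69 in the other cold arrays and 2.78 to 3.05 in control. Its part in the cold values was not tested. Without this array the rule gave 31 probe sets, 22 of them members.

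NaCl was the treatment left out of the rule. The mean NaCl change of the members had a median of 0.64, beside -0.031 over all probe sets, and ranged from -1.30 to 2.00, with 29 of 33 above 0. The 3 NaCl arrays did not give this value alike. The median of the members above the control mean was 0.18 in replicate 1, 1.64 in replicate 2 and -0.10 in replicate 3, beside -0.026 to 0.027 for all probe sets. By the median, replicate 2 was thus at the level of the cold arrays, and the other NaCl arrays were not. Replicate 1 was mixed, with members from -6.19 to 2.87. In it 11 members stood at least 1 above the control mean and 6 reached the lowest cold array, beside 2 and 0 in replicate 3. These counts were not taken over all probe sets.

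**Figure D4:**
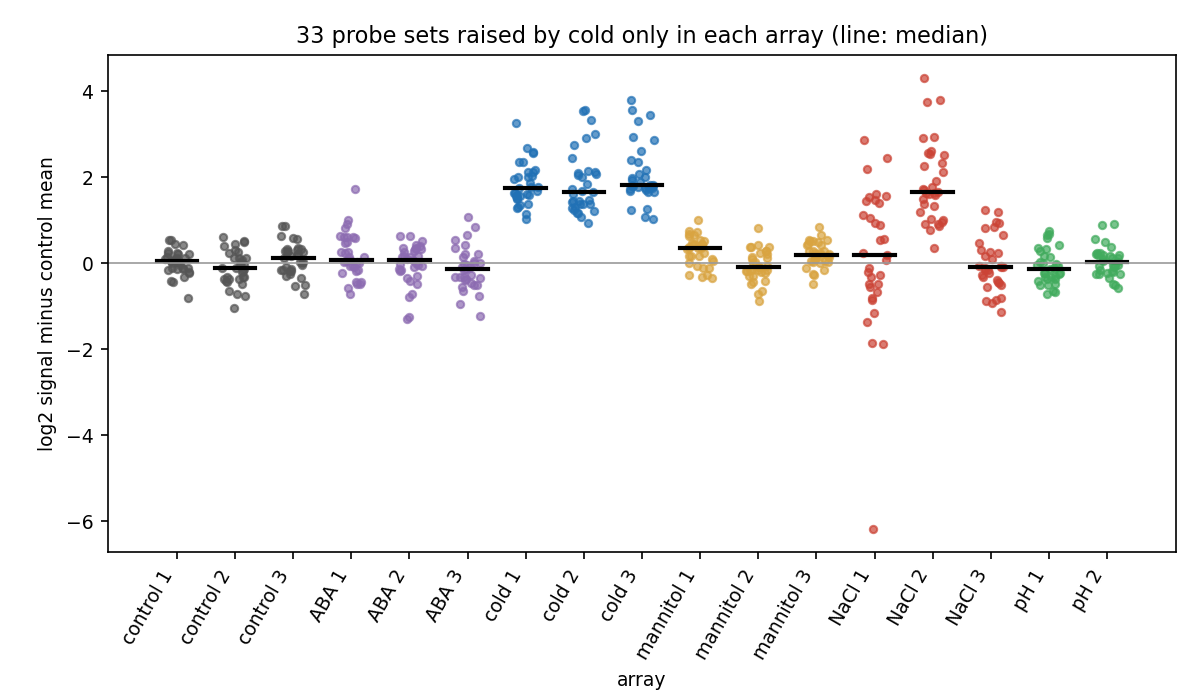
Each point is 1 of the 33 probe sets in 1 of the 17 arrays, as log2 signal minus its control mean, and the black line is the median. The medians are 1.65 to 1.81 in the cold arrays and 1.64 in NaCl replicate 2, and -0.15 to 0.34 in the other 13 arrays.

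In NaCl replicate 2, 32 of the 33 members lay above every control array, beside 33.6% of all probe sets. At or above the lowest cold array were 19, a count not taken over all probe sets. The median member reached 93.7% of its cold change. In the other 683 probe sets raised in cold the median was 92.5%, so the members were not alone in this. The array most like NaCl replicate 2 across all probe sets was cold replicate 2 (r = 0.941), with the same value when the members were left out, whereas NaCl replicate 3 was closest to control replicate 3 (r = 0.924) and NaCl replicate 1 to NaCl replicate 3 (r = 0.856). NaCl replicate 1 was the array with the lowest deposited signals, with a trimmed mean of 18.5. The label of replicate 2 was kept, and the NaCl counts and changes that follow are given with and without it where the array bears on them.

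**Figure D5:**
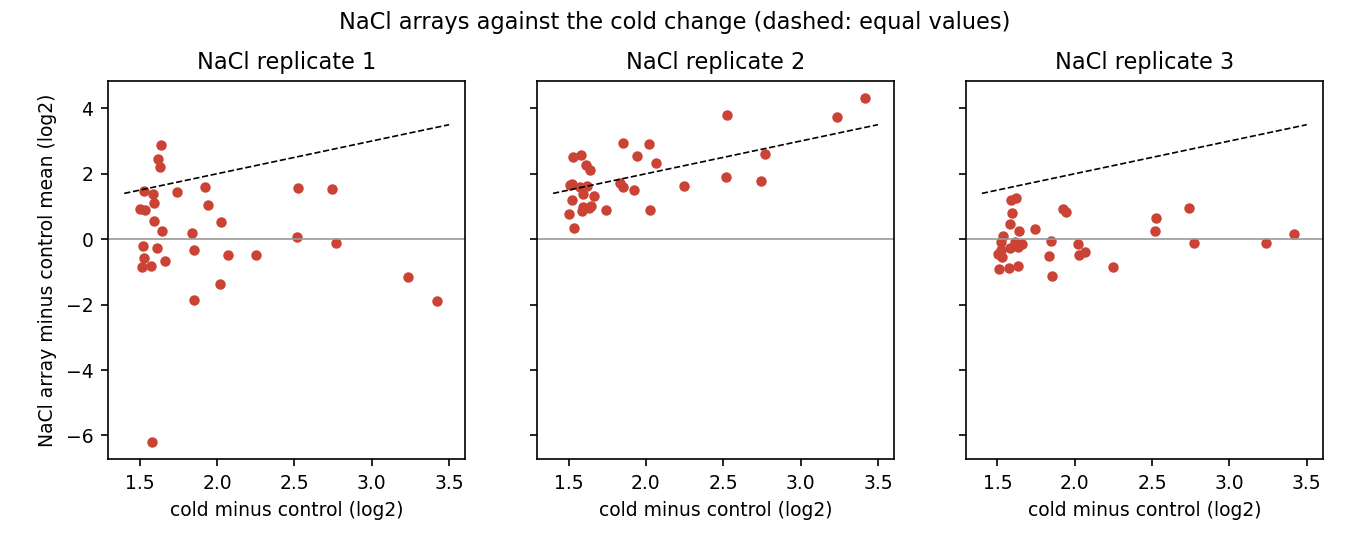
For each of the 33 probe sets the cold change is on the x axis and the value of 1 NaCl array minus the control mean on the y axis, both in log2 units, in a panel for each NaCl array; the dashed line marks equal values. Points of NaCl replicate 2 lie around the dashed line, from 0.35 to 4.31, and those of replicate 3 lie around 0, from -1.13 to 1.24.

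The top member shows the split of the NaCl arrays. Ghi.9263.4.S1_at stood at 3.45, 9.64 and 5.5 in NaCl replicates 1, 2 and 3, so that replicate 2 exceeded every cold array while replicate 1 was below every control array. Its NaCl change was 0.87 (SE 1.03, adjusted p = 0.729, limma) and -0.86 without replicate 2. GhiAffx.49836.1.A1_at was also split, at 3.74, 8.66 and 4.81, although its replicate 2 stayed just below cold replicate 3 at 8.72. The myb-like Ghi.501.2.A1_at stood at 5.98, 10.78 and 6.70, and its NaCl change of -0.017 (SE 0.91) became -1.5 without replicate 2 (adjusted p = 0.0829). For the ACS3 and ACS6 probe set Ghi.5451.1.S1_at the NaCl arrays were 6.19, 6.97 and 6.20, all above the control arrays, with a change of 0.51 (SE 0.45, adjusted p = 0.626) and of 0.25 without replicate 2. None of these 4 passed the test in NaCl.

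By limma, 1 of the 33 members rose in NaCl and none fell, beside 0.466% and 0.229% of all probe sets. With p left unadjusted at the same limits, 6 rose and 0 fell, beside 4.71% of all that rose, and without NaCl replicate 2 these were 4 and 2, beside 7.08% and 7.12% of all. The control arrays of this test also chose the members. The member that passed was Ghi.6324.1.S1_x_at, assigned to the protein-coding gene LOC107928594, for which no function is given. Its log2 signal was 4.77, 4.71 and 5.23 in control, 6.75, 6.18 and 6.62 in cold and 7.34, 6.54 and 6.15 in NaCl. The NaCl change of 1.77 (SE 0.35, adjusted p = 0.0414) was no smaller than the cold change of 1.62, and it remained past the threshold without NaCl replicate 2 (1.84, adjusted p = 0.0255). It passed in 11 of the 27 alternatives run, with changes of 0.87 to 2.04 and adjusted p of 0.000389 to 0.582.

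The second probe set of that gene, Ghi.6324.1.A1_x_at, was at 8.91, 9.07 and 9.0 in control, 9.85, 9.45 and 9.11 in cold and 9.48, 10.13 and 10.07 in NaCl. Its NaCl change was 0.90 (SE 0.32, adjusted p = 0.216), or 0.77 without NaCl replicate 2 (adjusted p = 0.220), and its cold change 0.47, and it stood at -0.95 in ABA and -0.98 in pH. Every NaCl array of both probe sets lay above every control array.

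In 9 members every NaCl array lay above every control array (27.3%), beside 7.16% of all probe sets, and in none did every NaCl array lie below. Without replicate 2 the remaining NaCl arrays lay above control in 9 members and below it in 7, beside 17% and 18.4% of all probe sets. A further 6 members had a mean NaCl change above 1 and did not pass the test. Ghi.9152.1.S1_at had the largest change of all members, 2.00 (SE 0.79, adjusted p = 0.258), with 5.64, 7.90 and 4.74 in the NaCl arrays, but 1.10 without replicate 2. GhiAffx.25167.1.A1_at was at 1.47 (adjusted p = 0.161) and fell short of 1 without replicate 2, at 0.94. The others were Ghi.7343.1.S1_at at 1.42 (adjusted p = 0.0578), Ghi.7480.1.S1_s_at at 1.39 (adjusted p = 0.385), GraAffx.32663.1.S1_at at 1.34 (adjusted p = 0.152) and Ghi.8759.1.A1_s_at at 1.22 (adjusted p = 0.0724). In Ghi.7343.1.S1_at the NaCl arrays were 6.06, 6.29 and 5.47, and in Ghi.8759.1.A1_s_at they were 6.78, 7.04 and 6.86 against 5.44, 5.63 and 5.95 in control. Without replicate 2, Ghi.7480.1.S1_s_at was at 1.03 and GraAffx.32663.1.S1_at at 1.27. All 3 NaCl arrays lay above every control array in these 6 members except Ghi.7480.1.S1_s_at, where replicate 3 stood at 4.03. The changes of Ghi.7343.1.S1_at and Ghi.8759.1.A1_s_at without replicate 2 were 1.25 and 1.15.

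At the other end, the smallest NaCl changes were -1.30 in GhiAffx.52546.3.S1_at, -0.044 in GhiAffx.15904.2.A1_s_at, -0.03 in Gra.1106.1.A1_s_at, -0.017 in Ghi.501.2.A1_at and 0.10 in GhiAffx.13919.1.S1_at. Without replicate 2 these were -3.24, -0.89, -0.85, -1.5 and -0.66. GhiAffx.52546.3.S1_at was at 1.68, 10.44 and 7.59 in the NaCl arrays (SD 4.47, n = 3), so that its mean fell near none of them. Its SE was 1.51 (adjusted p = 0.723). In its partner GhiAffx.52546.3.A1_at the NaCl arrays were 4.77, 9.03 and 5.98. NaCl replicate 1 was the lowest in both, and it was the array with low deposited signals.

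Without NaCl replicate 2 the members no longer stood above control as a set of values. The median of the NaCl change was then 0.032, beside -0.016 over all probe sets, with 17 of 33 above 0, 6 at 1 or more and 2 at -1 or less. By limma, 1 member rose and none fell without this array, beside 2.32% and 1.9% of all probe sets. In 17 members both replicates 1 and 3 were at or below the highest control array. This count and those above 0, at 1 or more and at -1 or less were not taken over all probe sets and are only a description. The SD over the NaCl arrays had a median of 1.14 in the members and 0.68 over all probe sets, beside 0.35 and 0.46 in cold.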

How the data were processed

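Whole-seedling RNA of 17 samples was measured on the Affymetrix Cotton Genome Array. The authors made MAS5 signals, and the signal intensities as deposited by the authors are linear, with 1 value for each of 24132 probe sets. The methods describe SAM at a fold of 2 and a false discovery rate of at most 5%, which was not used here, and also paired Cy3 and Cy5 probes, although the labels give biotin and 1 signal. After 103 Affymetrix controls were left out, log2 signals were quantile normalized over all arrays with no filter on low signals, and a change is the mean of a condition minus that of control. limma 3.58.1 in R 4.3.3 was fitted once to the 17 arrays, with Benjamini-Hochberg adjustment over 24029 probe sets, and a call needed a fold of at least 2 and an adjusted p of at most 0.05. SE are moderated and SD are between arrays. The script of the fit was checked on made-up data first. The number of arrays limits the precision. Plots used Python 3.11.15 and matplotlib 3.10.9.

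Members, gene lists and alternatives were chosen with earlier results of these data known. Named in the text were annotated members, the 10 with the largest cold change, pairs of one cluster, those at the edges of the rule, the 5 largest and 5 smallest NaCl changes and the 5 most alike probe sets outside the rule. The planned rule asked for the 15 largest with a name and the 3 largest without, but only 3 carried an annotation, so the number without a name was raised to those with a cold change of at least 2 after the values were seen. Names came from the platform annotation (743 probe sets, 697 matched to RefSeq genes) and from the names in the paper's supplementary tables. Of the tissue markers, the 1 photosystem probe set and the 2 fibre probe sets did not pass in cold or NaCl, and no seed storage name was found. The mean r was 0.00792 over 40 pairs of arrays with the same replicate number (-0.18 to 0.20) and -0.00405 over 80 pairs with unlike numbers. The main fit did not pair the samples by number, and with so few arrays these means cannot exclude a pairing.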

Additional observations from a re-analysis of the deposited data

How the results depend on the processing

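The choice of scaling moved the number of members more than any single array. By the rule, 68 probe sets qualified with median centring (32 of the 33 members among them), 20 with trimmed mean scaling (13), 2 without rescaling (0), 0 with quantile normalization in 2 separate sets and 48 with an offset of 32 (8). The 2 settings that left the ABA, mannitol and pH arrays on their own scale set these arrays apart by construction. With a cold change of at least 2 or a limit of 0.3 elsewhere, 10 remained each time. Leaving out 1 array gave 28 to 36 probe sets, with 18 to 33 of the members among them. The arrays were not normalized again and the rule does not use NaCl, so omitting a NaCl array kept all 33 by construction. Over the other omissions 18 to 32 members were kept. The members that met the rule under all 17 omissions were 4: Ghi.9263.4.S1_at, GhiAffx.13919.1.S1_at, GraAffx.10612.1.S1_s_at and Ghi.2777.1.S1_s_at.

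The single NaCl call became 0 with median centring, without rescaling, with the replicate number as a block (replicate block: 0) and with only control and NaCl in the fit. It became 3 without the dimmest 25% of probe sets, 6 against the mean of ABA, mannitol and pH and 6 at an unadjusted p. Omitting 1 array gave 0 to 4 calls: 4 without NaCl replicate 3, 1 without NaCl replicate 2, control replicate 2 (then Ghi.7343.1.S1_at instead), ABA replicate 2 or cold replicate 2 or 3, and 0 for each of the others. The median NaCl change was 0.032 to 0.98 over the omissions, lowest without NaCl replicate 2 and highest without NaCl replicate 3, and -0.15 without rescaling.

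NaCl changes that crossed 0, none of them called, were as follows. Without rescaling, where all probe sets shifted by -0.79, they were -0.20 in Ghi.1402.2.A1_at, -0.15 in Ghi.3429.3.A1_at, -0.72 in Ghi.3730.1.A1_s_at, -0.44 in Ghi.3807.1.S1_at, -0.26 in Ghi.4105.1.A1_s_at, -0.086 in Ghi.5187.1.A1_at, -0.36 in Ghi.5451.1.S1_at, -0.53 in Ghi.6859.1.S1_s_at, -0.45 in GhiAffx.13919.1.S1_at, -0.39 in GhiAffx.16394.1.S1_s_at, -0.21 in GhiAffx.52546.3.A1_at, -0.44 in Gra.369.1.S1_s_at, -0.42 in GraAffx.10612.1.S1_s_at, -0.10 in GraAffx.18278.1.S1_s_at, -0.031 in GraAffx.32433.1.S1_x_at and -0.39 in GraAffx.7842.1.A1_s_at. Ghi.501.2.A1_at was at 0.0065 with median centring, 0.035 with separate normalization and 0.14 with the offset, which put Gra.1106.1.A1_s_at at 0.030. Against the mean of ABA, mannitol and pH, GhiAffx.13919.1.S1_at was at -0.027 and GhiAffx.15904.2.A1_s_at at 0.065.

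Over the omissions of 1 array, 16 members crossed 0, 12 of them without NaCl replicate 2. The ranges were -0.86 to 2.24 in Ghi.9263.4.S1_at, -0.64 to 1.82 in GhiAffx.49836.1.A1_at, -0.12 to 1.25 in Ghi.3325.1.A1_at, -0.66 to 0.58 in GhiAffx.13919.1.S1_at, -0.44 to 0.97 in GhiAffx.16394.1.S1_s_at, -0.76 to 1.37 in GhiAffx.52546.3.A1_at, -1.5 to 0.90 in Ghi.501.2.A1_at, -0.19 to 0.76 in GraAffx.10612.1.S1_s_at, -0.16 to 0.95 in GraAffx.7842.1.A1_s_at, -0.41 to 0.58 in Ghi.3730.1.A1_s_at, -0.17 to 1.09 in GraAffx.18278.1.S1_s_at, -3.24 to 1.14 in GhiAffx.52546.3.S1_at, -0.85 to 0.40 in Gra.1106.1.A1_s_at, -0.56 to 0.98 in Ghi.1402.2.A1_at, -0.27 to 0.75 in Ghi.3807.1.S1_at and -0.89 to 0.39 in GhiAffx.15904.2.A1_s_at. The causes were not tested.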
